A study of Mus musculus with 17 samples.

Results

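The members of the respiratory chain and of ATP synthase were followed in antibody-secreting cells (ASCs), the plasmablasts and plasma cells that release antibodies, from the bone marrow of young and aged mice. Members were all array probes whose gene symbol in the platform annotation begins with Ndufa, Ndufb, Ndufs, Ndufv or Ndufc (complex I), Uqcr or Cyc1 (complex III), Cox4 to Cox8 (complex IV) or Atp5 (complex V), or is Sdha, Sdhb, Sdhc or Sdhd (complex II), while assembly factors named Ndufaf were left out. Of the 45281 probes on the array, 108 met this rule, and they belong to 76 genes: 50 probes lie in complex I, 7 in complex II, 9 in complex III, 15 in complex IV and 27 in complex V. The annotation gives 1 gene symbol to 20873 of the probes, so a subunit without a member here may still have an unnamed probe. No probe named Uqcrb, Atp5g1 or Cox8 was among the members. Membership follows the name alone: Ndufs5-ps is a pseudogene, Cox7a2l helps to join complexes into supercomplexes, and Ndufa4, named for complex I, is now counted as a subunit of complex IV. Young mice were 6 to 8 weeks of age and aged mice over 17 months, no genotype or treatment is named for either group, and all mice came from the same supplier. Marrow was flushed from the hind legs, ASCs were obtained by fluorescent cell sorting, and labelled cDNA was hybridized to Illumina mouse whole-genome bead arrays. There were 9 young and 6 aged samples on 17 arrays, and the repeat arrays of young samples 3 and 4 were averaged. Some samples may hold cells pooled from several mice, and which ones is not stated. The study names 9 young mice, as many as the young samples, but more aged mice than the 6 aged samples. Pools would thus lie among the aged samples, on 1 side of the comparison. The p-values therefore measure the spread between samples and not always that between mice.

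Oxidative phosphorylation takes place in the inner mitochondrial membrane. Complex I oxidizes NADH and complex II oxidizes succinate. Both pass electrons through ubiquinone to complex III, which hands them to cytochrome c, and complex IV uses them to reduce oxygen. Complexes I, III and IV pump protons as electrons pass, and complex V, the ATP synthase, lets the protons flow back and makes ATP from ADP and phosphate. Most subunits are encoded in the nucleus and imported, while a small set that forms the membrane cores is encoded in mitochondrial DNA. Plasma cells make and secrete large amounts of protein and rely on mitochondrial respiration for part of the energy this takes.

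Between 8998 and 15864 probes were detected per young sample and between 10401 and 17120 per aged sample, at a detection p-value under 0.05. Of the 108 member probes, 70 to 94 were detected in the young and 76 to 98 in the aged. Marker genes of the sorted cells moved with age. All 10 tested probes of an ASC list had a higher mean in the aged, 2 of which (Mzb1 and Xbp1) passed the threshold of 0.05 after adjustment (against 1.38% of all tested probes), and the summed signal of the list was 8946 to 12812 in young and 12599 to 18003 in aged samples. All 12 tested probes of a list for B cell precursors had a lower mean in the aged, 6 of which passed it, with a summed signal of 7390 to 14259 in young and 4402 to 5724 in aged samples. Sdc1, which encodes CD138, an antigen of the sorting gate, had several probes, none of which was tested. The probe that was brightest in the aged but dimmest in the young was detected in 1 of the 9 young samples and 5 of the 6 aged. Another was detected in 2 young and 2 aged, and the remaining probe in 3 young and 1 aged. Neutrophil markers had summed signals of 27220 to 61627 in young and 26897 to 54876 in aged samples, within which Ngp was at a log2 fold change (aged minus young) of -0.46 (limma adjusted p = 0.168) and Prtn3 at 0.62 (adjusted p = 0.0894). The 3 tested probes of mature B cells and the 5 of basophils and mast cells all had a lower mean in the aged, as had 4 of 6 of monocytes and macrophages, and 0 of these were called. At an unadjusted p under 0.05 from limma were Cd72 of mature B cells (-0.75), in which the groups did not overlap, Prss34 (-0.75) and Mcpt8 (-0.695) of basophils and mast cells, and Ccr2 (-0.405) and a probe of Lyz2 (-0.90) of monocytes and macrophages. The summed signals of these lists overlapped between the groups, at 2431 to 5823 in young and 1976 to 4747 in aged samples (mature B cells), 1851 to 4047 and 1567 to 3561 (basophils and mast cells) and 3729 to 11100 and 3616 to 7717 (monocytes and macrophages). Of the T cell list only Cd8a was tested (-0.138, limma adjusted p = 0.825). Both untested probes of Cd3e were detected in 1 of the 9 young samples and 5 of the 6 aged. The untested Cd3g probe was detected in 6 young and 1 aged, and those of Cd4 in 1 and 3 young and 0 and 2 aged. The 2 tested erythroid probes had a lower mean in the aged, and 0 were called. In such bulk samples fewer cells of a type and less RNA per cell cannot be told apart, and the part of these markers in the results on the respiratory chain was not tested.

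No member of the respiratory chain or ATP synthase differed between aged and young ASCs at an adjusted p under 0.05. Of the 108 probes, 86 probes of 69 genes passed the filter on detection and were tested with limma together with all other probes of the array, 22 were not tested because too few samples detected them, and 0 were called, against 1.38% of the 11073 tested probes. The methods' t-test also called 0 members after Benjamini-Hochberg adjustment (against 0.894% of all tested probes), and 4 (both probes of Ndufv3, Ndufa1 and Uqcrq) at the unadjusted p and the fold that the study used for its selection (4.65%, against 4.24% of all tested probes). At an unadjusted p under 0.05 from limma, 4 member probes were higher in the aged (4.65%, against 8.81% of all tested probes), namely Ndufa1, both probes of Ndufv3, and Uqcrh. At the same level 2 were lower (2.33%, against 5.27% of all tested probes), namely Uqcrq and Atp5j. Both shares were below those of the whole array. In 0 of the 86 did the values of the groups separate without overlap, against 0.659% of all tested probes. The log2 fold change (aged minus young) was above 0 for 50 and below 0 for 36 of the members (58.1% above, against 48.2% of all tested probes), with a median of 0.033 against -0.011 over all tested probes. The 95% confidence interval of the fold change lay inside 1.5-fold either way for 38 of the 86 members and inside 2-fold for 80, so that a change of 2-fold or more lay outside it for all but 6, whereas smaller changes often did not.

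**Figure D1:**
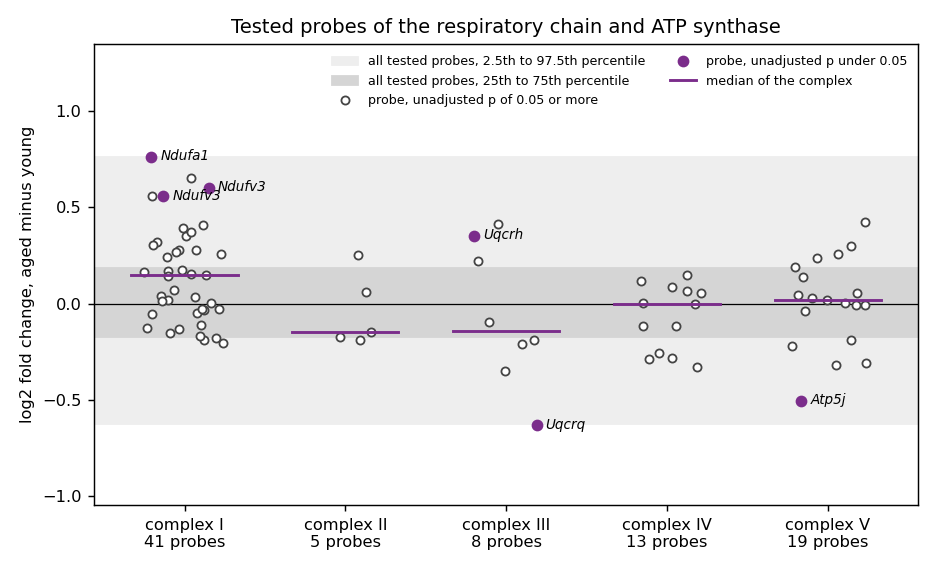
Log2 fold change (aged minus young, vertical axis) of each of the 86 tested member probes, by complex; filled points have an unadjusted p under 0.05, purple lines are medians, and the grey bands give the spread of all tested probes. Complex I has 28 of 41 points above 0 and a median of 0.149, and the medians of the other complexes run from -0.147 to 0.019.

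By complex, the counts were as follows. In complex I 28 of 41 tested probes were above 0 (68.3%, median 0.149), in complex II 2 of 5 (median -0.147), in complex III 3 of 8 (median -0.143), in complex IV 6 of 13 (median 0.000) and in complex V 11 of 19 (median 0.019). These medians depend on how the arrays are scaled. With each array set to its 75th percentile they were 0.269, 0.040, -0.079, 0.138 and 0.151 for complexes I to V, so that complex II changed sign, and 69.8% of the members were above 0 against 57.5% of all tested probes. With the brightest probe of each gene in place of all probes, 22 of 32 genes of complex I were above 0. Averaged over its tested probes and set to the young mean, complex I stood at -0.10, -0.04 and 0.12 (lowest, median and highest) in young and at 0.04, 0.13 and 0.35 in aged samples. The highest young samples lay above 3 of the 6 aged samples, so the groups overlapped, and the aged sample with the highest value was sample 3. The mean over the 6 aged samples was 0.15 ± 0.12 (SD), against an SD of 0.094 among the 9 young. For complex V the aged mean was 0.005 ± 0.091, for complex III -0.061 ± 0.12, for complex IV -0.071 ± 0.22 and for complex II -0.039 ± 0.32, all smaller than the spread among samples. The wide spread of complex II came from aged sample 4 (-0.62), the lowest of all samples, and in complex IV aged sample 2 (-0.46) and young sample 2 (-0.32) were lowest. No test was made on these averages, since the members of a complex are not replicates.

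**Figure D2:**
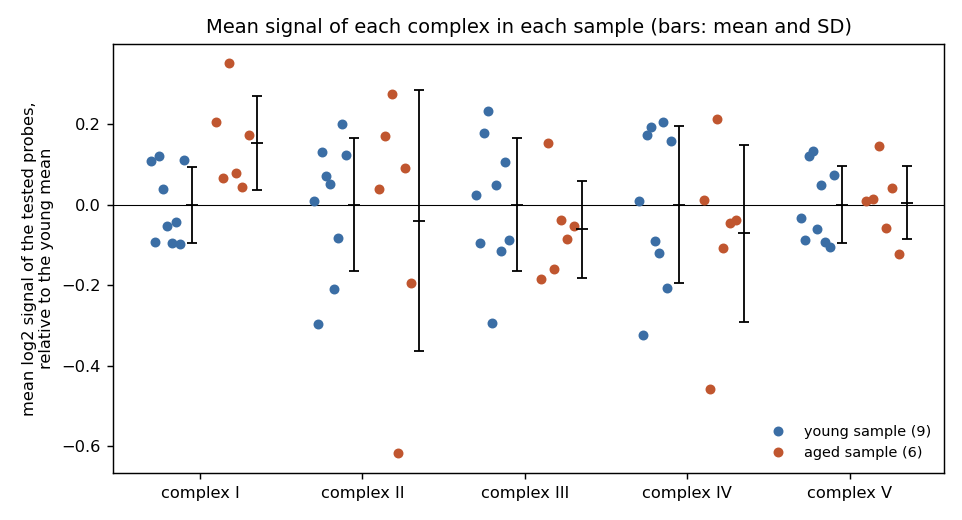
Mean normalized log2 signal of the tested probes of each complex in each sample, relative to the mean of the young samples (vertical axis); points are samples, and bars give the mean and SD of 9 young (blue) and 6 aged (orange) samples. Complex I lies between 0.04 and 0.35 in the aged and between -0.10 and 0.12 in the young, and aged sample 4 lies at -0.62 in complex II.

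To describe the genes beyond their names, the DNA before their start sites was read from RefSeq (GRCm38.p6). The windows ran from 250 bases before to 50 bases after each start. Of the 76 member genes 63 matched, with 68 promoters. Nuclear respiratory factor 1 (NRF1), ETS factors such as GABP (NRF2) and YY1 are known to bind promoters of respiratory genes, and their core letters were sought on both strands. The NRF1 letters GCGCANGCG were in 20 of 68 member promoters (29.4%), in 13.5% of the promoters of other genes with a tested probe and in 6.25% of all 32851 promoters. The ETS letters CCGGAAG were in 23.5%, 17.9% and 8.86%, and the YY1 letters AAGATGG in 14.7%, 7.26% and 6.34%. Neither share was even across the members. ETS letters were in 11.8% of complex I promoters and 35.3% of those of complexes II to V. YY1 letters were in 20.6% and 8.82%, and NRF1 letters in 23.5% and 35.3%. The Sp1 letters GGGCGG were in 42.6%, 61.1% and 35.7%, and thus less common in member promoters than in those of other genes with a tested probe. The ETS and YY1 letters can share AAG, and NRF1 matches on opposite strands can overlap. Windows of the same gene can overlap too, and a match then counts more than once. This was so for the NRF1 and Sp1 matches of Ndufa5. A match is a description and no binding site. Median GC content was 58.5% in member promoters and 60.3% in those of other genes with a tested probe. The 250 bases before the start are given for 4 of the 5 genes with an unadjusted p under 0.05 (Uqcrq had no entry) and for Sdha, whose promoter holds several NRF1 matches, 5′ to 3′ along the gene's strand, with matches to the NRF1, ETS, YY1 and Sp1 letters in capitals.
Ndufa1, chrX:37191239-37191488, minus strand, with an Sp1 match: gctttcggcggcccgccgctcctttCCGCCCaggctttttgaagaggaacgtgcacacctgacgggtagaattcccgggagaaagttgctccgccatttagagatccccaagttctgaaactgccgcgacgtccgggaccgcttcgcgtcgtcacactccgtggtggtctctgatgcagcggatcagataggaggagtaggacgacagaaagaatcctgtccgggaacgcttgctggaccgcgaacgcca
Ndufv3, chr17:31519865-31520114, plus strand, with an Sp1 match: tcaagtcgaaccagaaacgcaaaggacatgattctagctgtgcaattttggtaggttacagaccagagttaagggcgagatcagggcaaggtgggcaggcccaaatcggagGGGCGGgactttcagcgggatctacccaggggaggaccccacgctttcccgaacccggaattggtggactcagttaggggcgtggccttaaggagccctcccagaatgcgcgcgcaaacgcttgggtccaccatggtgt
Uqcrh, chr4:116075071-116075320, minus strand, with an ETS match: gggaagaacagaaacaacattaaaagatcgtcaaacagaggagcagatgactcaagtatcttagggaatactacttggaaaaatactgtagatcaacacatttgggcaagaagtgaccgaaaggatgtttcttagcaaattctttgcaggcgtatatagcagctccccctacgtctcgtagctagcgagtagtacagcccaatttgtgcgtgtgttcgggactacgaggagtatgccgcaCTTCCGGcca
Atp5j, the downstream of its promoters, chr16:84834977-84835226, minus strand, with a YY1 and an ETS match: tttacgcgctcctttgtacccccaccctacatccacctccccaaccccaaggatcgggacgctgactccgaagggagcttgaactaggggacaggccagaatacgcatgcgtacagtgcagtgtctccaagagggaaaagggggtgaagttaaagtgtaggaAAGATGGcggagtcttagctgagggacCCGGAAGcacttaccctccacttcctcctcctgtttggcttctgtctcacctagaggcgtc
Sdha, chr13:74350241-74350490, minus strand, with 3 NRF1 matches: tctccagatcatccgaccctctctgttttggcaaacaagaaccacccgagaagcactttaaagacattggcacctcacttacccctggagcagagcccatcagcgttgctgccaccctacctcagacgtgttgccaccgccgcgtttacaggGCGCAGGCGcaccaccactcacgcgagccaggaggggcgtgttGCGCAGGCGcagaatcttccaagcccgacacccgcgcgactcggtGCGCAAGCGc

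Complex I held the member with the smallest p. Ndufa1 encodes a small membrane subunit that is needed to assemble complex I and, as the window above shows, lies on the X chromosome. Its log2 signal was 9.77, 10.23 and 10.46 (lowest, median and highest) in young and 10.22, 11.15 and 11.39 in aged samples. Of the 6 aged samples 5 lay above all young samples, and the exception was aged sample 2. The log2 fold change was 0.76 (standard error, SE, 0.197), a fold of 1.70, with a limma adjusted p of 0.0577. The value without aged sample 2 was 0.91, with a limma adjusted p of 0.00857, and without young sample 2 it was 0.80, with an adjusted p of 0.0404. Left out in turn, no other sample brought it past the threshold. On the tested probes of the ASC list aged sample 2 had the lowest mean log2 signal of the aged samples, 9.32. The other aged samples were at 9.93 to 10.31, and the young at 9.11 to 9.52 with young sample 2 the highest. The part of this in the values of Ndufa1 was not tested.

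Ndufv3, an accessory subunit of the module that takes up NADH, was the other gene of complex I at an unadjusted p under 0.05, on both of its probes. The log2 signal of the first probe was 7.98, 8.37 and 8.65 in young and 8.54, 8.99 and 9.41 in aged samples, and that of the second 8.16, 8.69 and 9.02 in young and 8.76, 9.38 and 9.80 in aged samples. On the first probe 5 and on the second 4 of 6 aged samples lay above all young samples. The log2 fold changes were 0.56 (SE 0.165, limma adjusted p = 0.0962) and 0.60 (SE 0.214, limma adjusted p = 0.179).

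**Figure D3:**
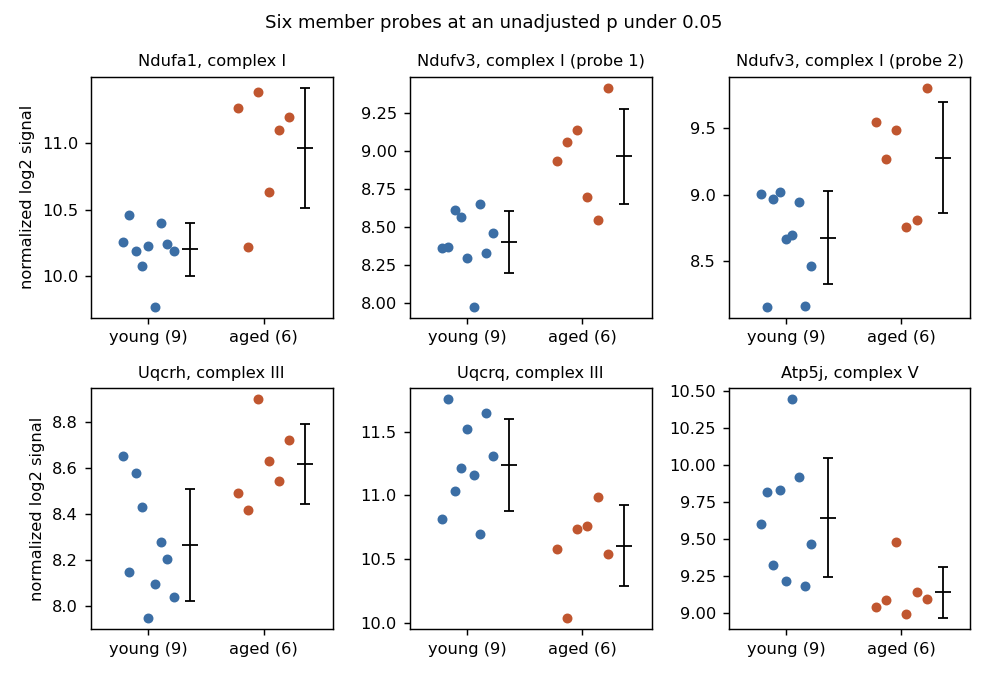
Normalized log2 signal (vertical axis, its own range in each panel) of the 6 member probes at an unadjusted p under 0.05 in each of 9 young (blue) and 6 aged (orange) samples; bars give mean and SD. The groups overlap in every panel, and for Ndufa1 5 of 6 aged samples lie above all young samples.

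Ndufa13, known as GRIM-19 and described both as a subunit of complex I and as a regulator of cell death, ranged from 8.90 to 11.51 in young and from 10.18 to 11.32 in aged samples. All 6 aged samples lay above the young median of 10.03, but young sample 2 was higher than any aged sample (log2 fold change 0.65, SE 0.315, limma adjusted p = 0.356). Ndufab1, the mitochondrial acyl carrier protein, which also serves fatty acid synthesis in mitochondria, had log2 fold changes of 0.32 and 0.17 on its tested probes (limma adjusted p of 0.440 and 0.745) and of -0.061 on another probe that did not pass the filter. Ndufs3, a core subunit near the ubiquinone site, was detected in 1 of the 9 young samples and 4 of the 6 aged and therefore not tested. Its log2 signal was 7.70 to 8.37 in young and 7.94 to 8.71 in aged samples, a difference of 0.35 in a range where most young samples were at background. The core subunits encoded in the nucleus include those that carry the flavin and the iron-sulfur clusters. They were measured with 5 tested probes, of which 3 were above 0. These included Ndufv2 (0.40, limma adjusted p = 0.435) and Ndufv1 (0.17), whose products form the NADH site, as well as Ndufs1 (-0.13), Ndufs7 (0.011) and Ndufs8 (-0.13). Among 35 tested probes of accessory subunits 25 were above 0, with a median of 0.152. By its name Ndufa4 (-0.035), now counted to complex IV, is included here and in the counts of complex I. Further accessory subunits above 0 were Ndufa12 (0.56, limma adjusted p = 0.416), which lies where the arm that binds NADH meets the rest of the complex, Ndufa2 (0.41), Ndufa3 (0.37 and 0.15), Ndufa10 (0.35) and Ndufs6 (0.30). Ndufb8 was at 0.15, and Ndufs4, an accessory subunit whose loss in mice causes a disease like Leigh syndrome, ran from -0.11 to 0.15 over 4 probes. The lowest value in complex I was that of Ndufa8 (-0.21, limma adjusted p = 0.779).

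Complex II, which is also an enzyme of the citric acid cycle, showed no member at an unadjusted p under 0.05. Sdha, the flavoprotein that oxidizes succinate, had a log2 signal of 8.63 to 9.86 in young and 8.62 to 9.27 in aged samples (log2 fold change -0.19, SE 0.196, limma adjusted p = 0.732). The probes of Sdhc, a membrane anchor that binds ubiquinone, went opposite ways, with 0.25 (limma adjusted p = 0.699) and -0.17 (adjusted p = 0.819). Sdhd, the other anchor, was at -0.15, and Sdhb, the iron-sulfur subunit, at 0.061.

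Complex III held a member on either side. Uqcrq encodes a small subunit beside cytochrome b that is known for binding ubiquinone. Its log2 signal was 10.70, 11.22 and 11.75 (lowest, median and highest) in young and 10.04, 10.66 and 10.98 in aged samples. All 6 aged samples lay below the young median and 3 of them below all young samples. The log2 fold change of -0.63 (SE 0.200, limma adjusted p = 0.131) was the lowest among the tested members. Uqcrh, the hinge protein that connects cytochrome c1 with cytochrome c, was at 7.95, 8.20 and 8.65 in young and 8.42, 8.59 and 8.90 in aged samples. Its log2 fold change was 0.35 (SE 0.134, limma adjusted p = 0.217), and it was detected in 4 of the 9 young samples and 6 of the 6 aged. Among the catalytic subunits, Uqcrfs1, the Rieske iron-sulfur protein, had a log2 fold change of -0.19 (SE 0.101, limma adjusted p = 0.418). For Uqcrfs1 4 of 6 aged samples lay below all young samples, in a range of 8.04 to 8.72. Its probe was detected in 8 of the 9 young samples but only 3 of the 6 aged, so that part of the aged values were at background. Cyc1, cytochrome c1, was at -0.098 and Uqcrc2, a core protein, at 0.22. Among the small subunits Uqcr11 was at 0.41 (limma adjusted p = 0.431), or 0.22 without aged sample 2, and both probes of Uqcr10 were below 0 (-0.35 and -0.21).

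In complex IV no member had an unadjusted p under 0.05, and the tested values ran from -0.33 to 0.15. The lowest was that of Cox7a2l, the supercomplex factor and no subunit proper, with a log2 signal of 8.00 to 9.26 in young and 8.09 to 8.70 in aged samples (log2 fold change -0.33, SE 0.175, limma adjusted p = 0.414). Cox5a, a matrix-side subunit, lay in all 6 aged samples below the young median of 10.30, at 9.51 to 10.23 (log2 fold change -0.29, SE 0.192, limma adjusted p = 0.546). Several subunits have forms that are restricted to certain tissues. Cox6a2 and Cox7a1, the forms of heart and skeletal muscle, and Cox6b2, that of testis, were detected in part of the samples or hardly at all: Cox6a2, with log2 signals of 7.94 to 9.59 in young and 7.72 to 9.18 in aged samples, was detected in 6 of the 9 young samples and 4 of the 6 aged (-0.28, limma adjusted p = 0.721), while Cox7a1 and Cox6b2 were each detected in 1 of the 9 young samples and 0 of the 6 aged and not tested. The forms that are widely expressed stood near 0, with Cox4i1 at 0.12, Cox6a1 at 0.084 and 0.053, and Cox6b1 at 0.005 and -0.12. Cox6c was at 0.064 and Cox7b at 0.000, and the probes of Cox5b, which binds zinc, were at 0.15 and -0.12. Cox7a2 was at -0.26, and its young samples ranged from 7.93 to 10.56, the top value being that of young sample 2. Without young sample 2 the value was -0.003.

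Complex V consists of the catalytic F1 part in the matrix, the proton-conducting ring of c subunits in the membrane, and a peripheral stalk that holds both together. Atp5j, coupling factor 6 of this stalk, had log2 signals of 9.18, 9.60 and 10.44 (lowest, median and highest) in young and 8.99, 9.09 and 9.48 in aged samples on its brightest probe. Here 5 of 6 aged samples lay below all young samples, and aged sample 3 was the exception. The log2 fold change was -0.51 (SE 0.205, limma adjusted p = 0.255). The other tested probe of Atp5j did not have this pattern: its log2 signals were 8.51, 9.36 and 9.64 in young and 8.87, 9.29 and 9.85 in aged samples, with a log2 fold change of 0.046 (SE 0.212, limma adjusted p = 0.955). Another probe was detected in 1 of the 9 young samples and 0 of the 6 aged. Of the 6 tested probes of the F1 subunits 5 were above 0. Atp5a1, the α subunit, was at 0.42 on its brighter probe (SE 0.210, limma adjusted p = 0.374) and at 0.019 on the other, Atp5b, the catalytic β subunit, at 0.24, Atp5d and Atp5e, which sit at the foot of the central stalk, at 0.26 (limma adjusted p = 0.443) and 0.19, and Atp5c1, the shaft of that stalk, at -0.22. Outside F1 6 of 13 were above 0. The c subunit is encoded by several genes that yield the same mature protein, and of these Atp5g2 was at 0.029 and Atp5g3 at 0.14. Atp5o, which joins the stalk to F1, was at -0.31, and Atp5j2, a membrane subunit, at -0.32 (limma adjusted p = 0.600). Atp5h, of the peripheral stalk, was at 0.30 and Atp5pb, its main shaft, at -0.006. Among the small membrane subunits Atp5mpl was at -0.19, Atp5md at 0.055, Atp5k at 0.001 and Atp5l at -0.041 and -0.006.

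Genes with several probes gave more than 1 measurement. The probes of Ndufv3, Atp5a1 and Ndufab1 are annotated to different RefSeq or GenBank records, and whether these stand for different transcripts was not checked. Among 15 genes with several tested probes, the signs matched for 8 and differed for 7. The probes of Ndufv3 lay 0.043 apart and those of Ndufa5, an accessory subunit of complex I, 0.011 apart (0.28 and 0.27). Those of Atp5j lay 0.55 apart, the widest gap among these genes, followed by Sdhc (0.43) and Atp5a1 (0.40). The positions of the probes within the transcripts were not used here. The repeat arrays of young sample 3 differed by a median of 0.243 and those of young sample 4 by 0.319 over the 86 member probes on the log2 scale. Whether these repeats share 1 RNA preparation is not stated. The median standard error of the fold changes was 0.209, which belongs to a difference of group means and not to single arrays.

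**Figure D4:**
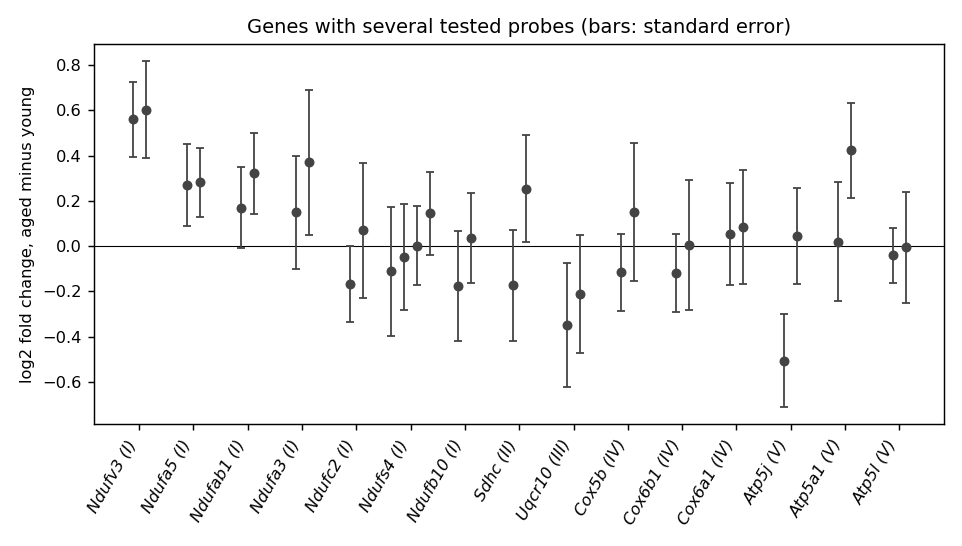
Log2 fold change (aged minus young, vertical axis) of each tested probe of the 15 member genes with several tested probes; bars give the standard error, and the complex stands in parentheses. The probes of Ndufv3 lie at 0.56 and 0.60, and those of Atp5j at -0.51 and 0.046.

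Genes that serve the same pathway but lie outside the rule were examined as lists. Of 8 probes for subunits encoded in mitochondrial DNA, a list added after the data had been seen, 6 were above 0 (against 48.2% of all tested probes) and 0 were called (against 1.38%), and 2 had an unadjusted limma p under 0.05, both on the higher side (against 8.81%). CYTB, the cytochrome b of complex III, had log2 signals of 13.46 to 13.98 in young and 13.80 to 14.00 in aged samples (log2 fold change 0.24, SE 0.097, limma adjusted p = 0.267), and ATP6, the proton channel of complex V, was at 0.38 (SE 0.162, adjusted p = 0.289). Subunits of complex I among them ran from -0.079 (ND6) up to ND1, whose log2 signals were 11.84 to 12.82 in young and 12.24 to 12.78 in aged samples. Assembly factors showed no call: complex I had 2 of 6 tested probes above 0, complex II 3 of 3, complex III 2 of 2, complex IV 8 of 10 and complex V, its inhibitor Atpif1 included, 1 of 4. Sdhaf1, an assembly factor for the iron-sulfur subunit of complex II, was at 0.53 (limma adjusted p = 0.151) and 0.39 (adjusted p = 0.320), with all 6 aged samples above the young median on both probes. Cox17, the copper chaperone of complex IV, was at 0.58 (SE 0.198, limma adjusted p = 0.162), again with all 6 aged samples above the young median, and was called with array quality weights (limma adjusted p = 0.0293). Cytochrome c, the flavoproteins and dehydrogenases that feed ubiquinone had 5 of 12 tested probes above 0 and 0 calls, and factors of mitochondrial transcription and biogenesis such as Nrf1 and Tfam had 2 of 7 above 0 and 0 calls, with 0 of these at an unadjusted p under 0.05 from limma in either list. 

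Among the carriers and channels that move ADP, ATP and phosphate, 1 of 9 tested probes was called, against 1.38% of all tested probes. Slc25a4, the ADP/ATP carrier of heart and skeletal muscle, was lower in aged ASCs, in a call close to the threshold. Its log2 signals were 8.58, 9.10 and 9.49 (lowest, median and highest) in young and 7.90, 8.34 and 8.92 in aged samples. All 6 aged samples lay below the young median, and aged sample 3 was the only one above any young sample. The log2 fold change was -0.78 (SE 0.191, limma adjusted p = 0.0455), and the probe was detected in 9 of the 9 young samples and 4 of the 6 aged. The call held in 4 of the 15 analyses that each left out 1 sample (young samples 2 and 6, aged samples 2 and 3), over which the limma adjusted p ran from 0.0162 to 0.130. It was also lost with 75th percentile scaling (adjusted p = 0.211), with no filter (0.0990), with the authors' values (0.0515) and on the samples numbered 1 to 6 with the replicate block (0.155) or without it (0.133). Slc25a5, the widely expressed carrier, was at -0.13 (limma adjusted p = 0.828). Vdac1, the channel of the outer membrane through which these nucleotides pass, was at -0.39 (limma adjusted p = 0.275) and -0.43 (adjusted p = 0.414), with all 6 aged samples below the young median on both probes.

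**Figure D5:**
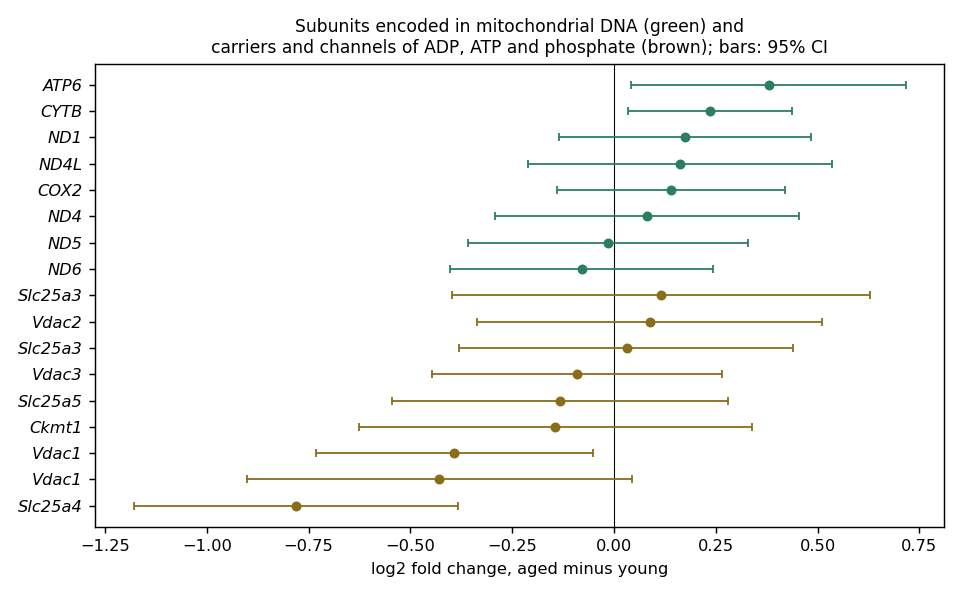
Log2 fold change (aged minus young, horizontal axis) with 95% confidence interval for 8 probes of subunits encoded in mitochondrial DNA (green) and 9 probes of carriers and channels for ADP, ATP and phosphate (brown). Slc25a4 at -0.78 is the lowest of these, and ATP6 at 0.38 the highest.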

How the data were processed

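The authors hybridized labelled cDNA of sorted ASCs to Illumina MouseWG-6 v2 arrays. They deposited the intensity of each probe without normalization, a detection p-value of each probe and array was deposited beside them, and the authors' quantile normalized intensity table served as an alternative. The scanner software is not given in the sources used here.

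Signals were quantile normalized and put on a log2 scale with limma 3.58.1 in R 4.3.3 (with version 1.17.8 of data.table), and repeat arrays were averaged. Probes detected (p-value under 0.05) in at least 7.5 of 15 samples, on either array for repeats, whose highest and lowest values differed by at least 1.2-fold entered lmFit and eBayes with a trend on intensity. Tests were two-sided, and Benjamini-Hochberg adjustment covered all 11073 probes. The number of arrays limits the precision.

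The members and lists were chosen with earlier results of these data known. The members named were the 4 smallest p-values per complex (2 in complex II), those the study names, the tissue forms of complex IV subunits and c subunit genes, and the 3 smallest p-values among other genes of the pathway. Further members of a group described and the second value of a gene were named after their values were seen. Promoters came from RefSeq (GRCm38.p6). Plots used matplotlib 3.10.9, with tables read by pandas 2.3.3. Samples were compared as their titles group them, and the 2 groups share replicate numbers 1 to 6, which no source ties to a batch or day.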

Additional observations from a re-analysis of the deposited data

Results flagged for a closer look

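The members named and the averages of the 5 complexes were examined for a sample far from the others of its group, which covered 84 groups, and chance flags about 1 in 20 groups. A gap of this kind was found in 6. For the brightest probe of Atp5j aged sample 3 stood at 9.48, with the next aged sample at 9.14 and the lowest at 8.99, and it was the only aged sample within the young range. The same sample stood highest for Atp5d at 8.99, the next being at 8.63. For the dimmer probe of Atp5a1 young sample 6 stood at 10.21 and the next young sample at 8.67. The same sample was the lowest for Cox4i1, at 9.82 against 10.25 for the next. For Cox7a2 young sample 2 stood at 10.56 and the next at 8.88. For a probe of Atp5j that was not tested young sample 3 stood at 8.23 and the next at 8.08.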

How the results depend on the processing

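Of the members of the respiratory chain and ATP synthase, 0 were called in 7 of 10 planned settings besides leaving samples out, and 1 (Ndufa1) was called with only probes detected in all 15 samples, without the intensity trend, and with array quality weights. Leaving out each sample in turn gave 0 to 1 (Ndufa1 without young sample 2 or aged sample 2), and leaving out both of these, a setting chosen after seeing the data, gave 1. Member probes at an unadjusted p under 0.05 numbered 7 higher and 7 lower with array quality weights, 7 higher and 4 lower without both samples, 0 lower with 75th percentile scaling and 6 lower with no filter, and 4 to 8 higher and 2 to 3 lower with each sample left out. With only probes detected in all 15 samples, 32 of 53 members and 16 of 22 of complex I were above 0, as fewer were tested. Leaving out each sample in turn, 44 to 54 members and 26 to 30 of complex I were above 0, and the medians ran from 0.079 to 0.158 (complex I), -0.186 to 0.057 (II), -0.222 to -0.090 (III), -0.088 to 0.058 (IV) and -0.025 to 0.070 (V). With 75th percentile scaling the medians of complexes I and V were 0.269 and 0.151. The cause of these shifts was not tested.

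Over the whole array 89 probes were called with 75th percentile scaling (82 higher and 7 lower, against 117 and 36), 45 with no filter, 702 with array quality weights, 99 with the methods' t-test, 434 without young sample 2 and aged sample 2, and 40 to 317 with each sample left out. With the replicate block, which used the samples numbered 1 to 6, 57 were called and 0 members, against 125 without the block on the same samples. Same-numbered samples correlated by -0.093 to 0.194 in their deviations, over 0.1 in 2 of 6 pairs. These were not compared with differently numbered samples, so whether the numbers pair the samples is not settled. A block by BeadChip was not run, since the headers name no chip.

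Slc25a4 lost its call with 75th percentile scaling (-0.679), no filter, the authors' values (-0.737) and the samples numbered 1 to 6, with or without the replicate block (-0.696 in both), and stood at -1.392 with normexp background correction. Cox17 was called with array quality weights alone among the settings run (adjusted p of 0.0293). Values near 0 changed sign in some settings. With array quality weights the dimmer tested probe of Atp5j was at -0.046, the dimmer probe of Cox6b1 at -0.076 and Atp5g2 at -0.091. With the first array of young samples 3 and 4 only, the dimmer probe of Atp5a1 was at -0.028 and that of Cox6b1 at -0.029. The dimmer probe of Atp5a1 was at -0.012 with the authors' values. With the samples numbered 1 to 6 it was at -0.042 and a probe of Cox6a1 at -0.050, with or without the replicate block. The brighter probe of Cox6b1 was at 0.102 with 75th percentile scaling. Without young sample 2 and aged sample 2, Cox7a2 was at 0.027, Atp5j at -0.044, Atp5a1 at -0.017 and Atp5g2 at -0.048. With each sample left out, these probes ran from -0.071 to 0.125 (Atp5j), -0.056 to 0.241 (Atp5a1), -0.038 to 0.270 and -0.088 to 0.186 (Cox6a1), -0.150 to 0.191 (Cox6b1) and -0.050 to 0.087 (Atp5g2). The 9 young and 6 aged samples limit the precision to a median SE of 0.209 for a member.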
